A study of Homo sapiens with 12 samples.

Results

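L-428 and L-1236 are established lines of Hodgkin lymphoma, in which the malignant cells come from B cells but have given up most B-cell gene expression. The comparison is between the 3 arrays of L-428 cells transduced with tGFP/EBF1 and the 3 arrays of L-1236 cells transduced with tGFP/EBF1, which are 6 of the 12 arrays of the study. Both were chosen by their labels, the comparisons named in the study's design being those of tGFP/EBF1 with tGFP within each line, and all 20546 array rows with a gene symbol were compared. Their vector carried the green fluorescent protein tGFP joined through an internal ribosome entry site to EBF1. The other 6 arrays hold L-428 tGFP and L-1236 tGFP cells, 3 each, whose vector carried tGFP alone. They are given beside the EBF1 groups to show what each line held without added EBF1. All 4 groups were cultured for 8 days and sorted for tGFP, and the labels call the 3 samples of a group independent without saying from which transductions they came, so that p-values measure the spread between these samples, which may be technical. Each line stands for 1 patient's tumour, and a difference between them is a difference between 2 cell lines.

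EBF1 is a transcription factor that starts the B-cell programme in lymphoid progenitors. With PAX5 it activates the genes of the B-cell receptor, among them CD79A and CD79B, which carry the receptor's signal into the cell, and it holds back the programmes of other lineages. In a mature B cell the receptor signals through the kinases LYN, SYK and BTK and the adaptor BLNK to phospholipase C gamma 2, and inhibitory receptors such as CD22 dampen it. In Hodgkin lymphoma cells many of these genes are silent, whereas the activation marker CD30, chemokines that draw T cells, and NF-kappaB and JAK-STAT components are high.

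Values are log2 signals of whole-transcript arrays as the authors deposited them, and the number of arrays limits the precision. Array medians lay between 7.19 and 7.31. The interquartile range of the signals was 2.47, 2.41 and 2.44 on the L-428 tGFP/EBF1 arrays, and it was 2.17, 2.31 and 2.26 on the L-1236 tGFP/EBF1 arrays. Replicate 1 of L-1236 tGFP/EBF1, with the interquartile range of 2.17, stood apart from its group in this way, as did replicate 3 of L-428 tGFP at 2.28. The transduced gene was measured on a row annotated EBF1 and PDGFRB, whose 3 RefSeq accessions are all of EBF1. Hodgkin markers were present in both lines: CD30, encoded by TNFRSF8, lay at 10.42 ± 0.036 in L-428 tGFP/EBF1 cells and at 10.08 ± 0.072 in L-1236 tGFP/EBF1 cells (SD, n = 3 each), and FSCN1, TRAF1, CCL17 and CCL22 were on in both. In L-1236 tGFP/EBF1 cells TRAF1 read 7.38, 7.25 and 7.29, near the limit for on given below. Of the defining B-cell markers, PAX5, CD79A and CD79B were on in both and MS4A1, which encodes CD20, was off in both. The T-cell receptor chains CD3D, CD3E and CD3G and the myeloid genes CD14 and LYZ were off in both, while the row of CSF1R, also a myeloid marker, lay at 7.70 ± 0.080 in L-428 and 7.78 ± 0.072 in L-1236 tGFP/EBF1 cells.

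A gene is called on in a group where all 3 arrays lay above the 95th percentile of 350 olfactory receptor rows on the same array, between 6.90 and 7.08 on the 6 arrays with EBF1, and off where all 3 lay at or below it. Olfactory receptor genes are best known from the nasal epithelium, and their rows were taken as rows with little transcript. The line is a benchmark only, since rows differ in affinity and single olfactory rows can carry signal, as that of the pseudogene OR5E1P, which is not among the 350, did in L-1236 tGFP/EBF1 cells. Of 73 measured markers of T and NK, myeloid, stromal, epithelial, endothelial, erythroid and megakaryocytic cells, 26 were also on in both lines, so a gene called on at a signal near 7 is weakly separated from an unexpressed one. A signal averages over all sorted cells of a sample, so fewer cells expressing a gene and less RNA per cell cannot be told apart. Signals were compared between groups within a row, and no row's level is set against another's.

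EBF1 signal was 12.96, 12.98 and 12.93 in L-428 tGFP/EBF1 cells, against 13.07, 13.27 and 13.10 in L-1236 tGFP/EBF1 cells. The groups did not overlap, and L-1236 was slightly higher. The difference of -0.19 on the log2 scale (SE 0.075) had an adjusted p of 0.0422 (limma), and it was not stable: after quantile normalization the difference was -0.0297 and after median centring -0.114, neither passing. The call was also lost when any array of L-428 tGFP/EBF1, replicate 2 or 3 of L-1236 tGFP/EBF1, or replicate 2 or 3 of L-1236 tGFP was left out, with differences of -0.129 to -0.211 in those fits. In the tGFP cells, EBF1 lay at 8.63, 8.37 and 8.34 in L-428, against 7.24, 7.13 and 7.16 in L-1236. The line difference in EBF1 was therefore 1.27 in L-428's favour with tGFP, and -0.19 with tGFP/EBF1.

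At these near-equal EBF1 levels the lines remained far apart. Of the 20546 rows, 1571 (7.65%) were called, meaning that they differed 2-fold or more at an adjusted p of 0.05 (limma, Benjamini-Hochberg over all rows). Of these, 996 (4.85%) were higher in L-428 and 575 (2.8%) lower. Without the fold limit 10381 rows (50.5%) passed, at a median standard error of 0.069, and the signals of single arrays did not overlap in 12230 rows (59.5%). Over all rows the median difference was -0.031, and the median size of a difference was 0.18. By expression state, 12579 rows (61.2%) were on in both lines and 5741 (27.9%) off in both. A total of 409 rows (1.99%) was on in L-428 and off in L-1236, and 365 (1.78%) were off in L-428 and on in L-1236. Of the 409, 217 were also called at 2-fold, and of the 365, 190 were. The rest lay on opposite sides of the benchmark without a 2-fold call. Of the 1571 called rows, 1230 were also called in the same direction between the lines with tGFP alone, and 0 in the opposite direction (1479 rows, or 7.2%, were called between the tGFP groups by limma). The comparison with EBF1 and that with tGFP share no array.

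The B-cell genes were described by 8 lists holding 142 measured genes. All 19 lists used here were chosen with earlier results of these data known. The shares called in any list, set beside those of all rows or genes, are therefore a description only. Of these, 25 (17.6%) were called between the lines with EBF1, 16 higher in L-428 and 9 lower, against 7.69% of all 18405 genes when each is represented by its brightest row. With quantile normalization the split was 14 higher and 15 lower. Their median difference was -0.057, against -0.029 over all genes. By state, 78 of the 142 were on in both lines, 42 off in both, 9 on in L-428 and off in L-1236, 3 off in L-428 and on in L-1236, and 10 had arrays on both sides of the benchmark in at least 1 line. The 9 were 4 at the 90th percentile of olfactory receptor rows (RASGRP3, CD24, CD38 and ZNF521), where FYN, CD53, PRKCB, BACH2 and CRLF2 were no longer off in all arrays of L-1236. The 3 were 5 at the 99th percentile, where BLNK and CD48 were off in both lines and CD79A, POU2AF1, FLI1 and MZB1 joined CD22. With tGFP alone, 27 of the 142 were called between the lines, and 20 of them were called with EBF1 too.

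**Figure D1:**
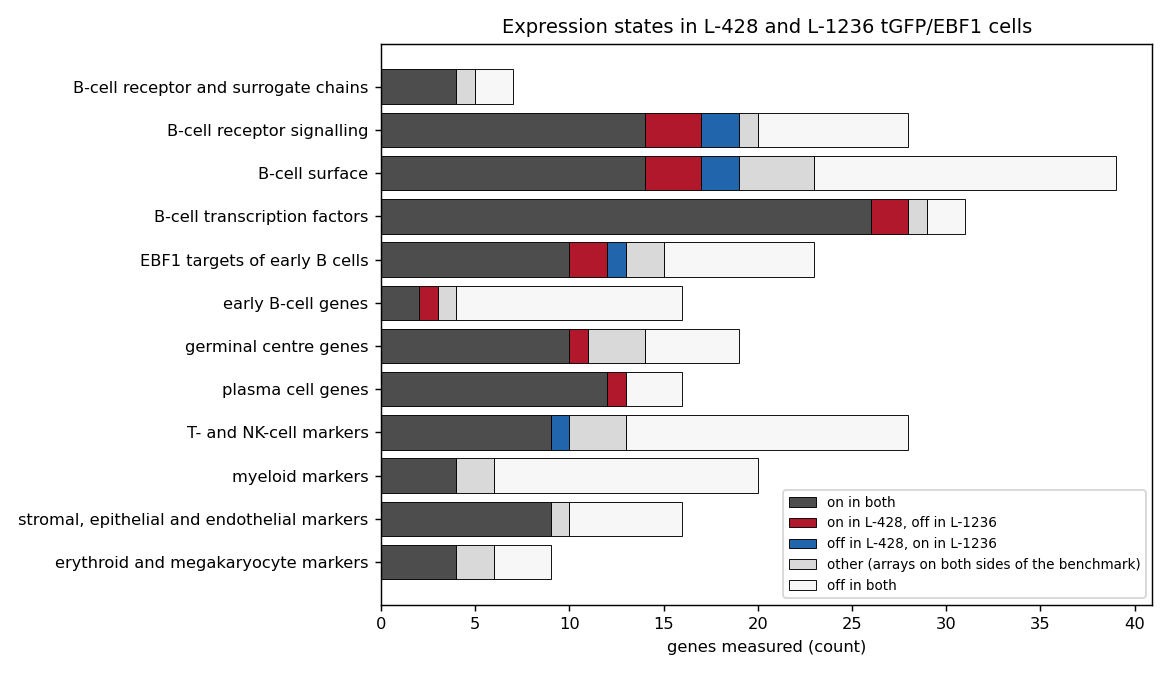
Number of measured genes of 8 B-cell lists (upper bars) and of 4 lists of markers of other cell types (lower bars) in each expression state in L-428 and L-1236 tGFP/EBF1 cells, where on and off are set by the olfactory receptor rows of the same array. B-cell transcription factors were on in both lines for 26 of 31 genes, whereas early B-cell genes were off in both for 12 of 16, and 9 of 28 T- and NK-cell markers were on in both.

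Among the chains of the B-cell receptor and of its surrogate in precursor B cells, 0 of 7 measured genes were called at 2-fold by limma (7.65% of all rows were), and 2 passed the adjusted p, both lower in L-428 (22.3% of all rows passed lower). CD79A, the signalling chain Ig-alpha, had signals of 7.19, 7.23 and 7.15 in L-428 tGFP/EBF1 cells, against 8.14, 8.15 and 8.26 in L-1236 tGFP/EBF1 cells. Every L-1236 array was above every L-428 array, and the difference of -0.99 (SE 0.060) corresponded to 1.99-fold and fell just short of the fold limit (limma, adjusted p = 5.35e-11). It was past that limit with either method of array weights and without replicate 2 of L-428 tGFP/EBF1 or replicate 1 or 2 of L-1236 tGFP/EBF1. With tGFP alone CD79A did not separate the lines, at 6.92, 6.97 and 6.98 in L-428 against 7.07, 7.02 and 6.92 in L-1236. CD79B, Ig-beta, was close to the benchmark in both, with 6.94, 6.98 and 7.06 in L-428 and 7.33, 7.30 and 7.22 in L-1236 tGFP/EBF1 cells, a difference of -0.29 (limma, adjusted p = 0.000781). VPREB1, a chain of the surrogate receptor, and JCHAIN, which joins secreted IgM and IgA, were off in both lines. By state, 4 of the 7 genes were on in both lines with EBF1 and 2 off in both. In L-428, 5 were on with EBF1 and 2 with tGFP, and in L-1236, 4 and 2. With tGFP, CD79A and CD79B had arrays on both sides of the benchmark in each line.

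Of 28 kinases, adaptors and coreceptors that carry or modulate the receptor's signal, 4 (14.3%, against 7.65% of all rows) were called between the lines, 3 higher in L-428 and 1 lower. By state, 14 were on in both lines, 3 on in L-428 and off in L-1236, 2 off in L-428 and on in L-1236, and 8 off in both. With quantile normalization 2 were lower. Among the genes of opposite state the widest gap was in RASGRP3, which activates RAS and RAP1 after receptor engagement. It had signals of 9.60, 9.55 and 9.62 in L-428 tGFP/EBF1 cells, against 6.36, 6.42 and 6.39 in L-1236 tGFP/EBF1 cells, or 9.23-fold (limma, adjusted p = 2.94e-16). L-428 was on and L-1236 off in every array. FYN, a SRC-family kinase, read 8.75, 8.69 and 8.82 in L-428 tGFP/EBF1 cells and 6.99, 6.81 and 6.89 in L-1236 tGFP/EBF1 cells, or 3.62-fold (limma, adjusted p = 2.03e-14). PRKCB, the protein kinase C isoform that links the receptor to NF-kappaB, was on in L-428 at 7.60, 7.76 and 7.75 and off in L-1236 at 6.75, 6.75 and 6.68. Its difference of 0.98 was under the fold limit.

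In the opposite direction, CD22, the inhibitory receptor that binds sialic acid, read 6.28, 6.39 and 6.51 in L-428 tGFP/EBF1 cells, against 8.50, 8.60 and 8.44 in L-1236 tGFP/EBF1 cells. It was off in every L-428 array, with or without EBF1, and on in every L-1236 array, and the L-428 signal was 4.34-fold lower (limma, adjusted p = 1.55e-14). BLNK, the adaptor that couples SYK to phospholipase C gamma 2, was off in L-428 at 6.56, 6.48 and 6.47 and lay above the benchmark in L-1236 at 7.30, 7.33 and 7.37, a difference of -0.84 (limma, adjusted p = 4.9e-10). Its L-1236 signal is near the benchmark, so that call is the weaker of the pair. SYK and BTK, the kinases on either side of BLNK, were off in both lines, with SYK at 6.60 ± 0.033 in L-428 and 6.66 ± 0.077 in L-1236 tGFP/EBF1 cells. LYN was on in both and passed higher in L-428 (10.36 ± 0.028 against 9.85 ± 0.050 in L-1236), and BLK did not pass (7.59 ± 0.040 in L-428 and 7.66 ± 0.033 in L-1236). PLCG2, phospholipase C gamma 2 itself, was on in both lines, at 13.13 ± 0.046 in L-428 and 13.48 ± 0.12 in L-1236 tGFP/EBF1 cells. LAPTM5, a lysosomal protein that lowers B-cell receptor levels at the surface, was on in both yet 11.4-fold higher in L-428, with 11.05, 10.98 and 11.02 against 7.45, 7.51 and 7.54 in L-1236 (limma, adjusted p = 8.39e-18).

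**Figure D2:**
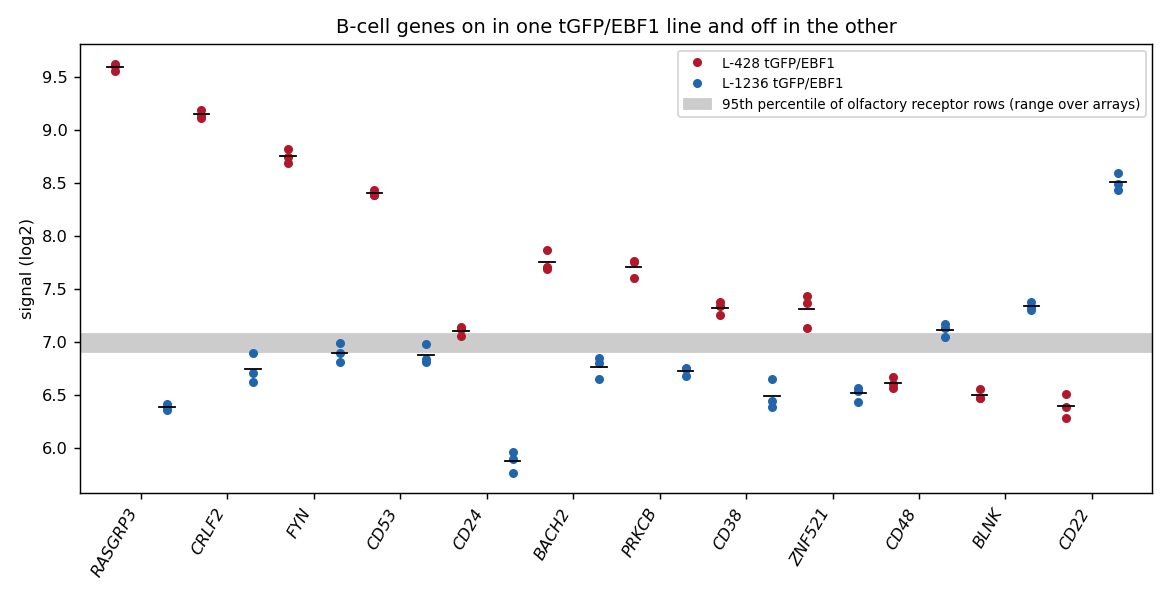
Log2 signal of the 12 B-cell genes that were on in one line and off in the other with EBF1, by array (points, 3 a group) with group means (short lines); the grey band is the range over the 6 arrays of the 95th percentile of olfactory receptor rows. RASGRP3 and CRLF2 stood well above the band in L-428 and CD22 in L-1236, whereas CD24 in L-428 and CD48 in L-1236 lay at the band's upper edge.

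Of 39 measured B-cell surface genes, 6 were called (15.4%, against 7.65% of all rows), 3 higher and 3 lower in L-428, and 16 were off in both lines. With quantile normalization 5 were lower. CD53, a tetraspanin of leukocytes, was on in L-428 at 8.39, 8.44 and 8.39 and off in L-1236 at 6.98, 6.81 and 6.83 (limma, adjusted p = 1.33e-10). CD24, a surface glycoprotein of precursor B cells, lay just above the benchmark in L-428 at 7.05, 7.14 and 7.12 and far below it in L-1236 at 5.76, 5.97 and 5.89. CD38, an ectoenzyme of germinal centre and plasma cells, was on in L-428 at 7.25, 7.37 and 7.34 and off in L-1236 at 6.65, 6.38 and 6.44. CD48, the ligand of CD244, was off in L-428 at 6.56, 6.67 and 6.60 and at the benchmark's edge in L-1236 at 7.13, 7.05 and 7.17, so that its on call is weak. The differences of 0.83 for CD38 and -0.50 for CD48 were under the fold limit. With tGFP alone CD38 had arrays on both sides of the benchmark in L-428 (6.75, 6.90 and 6.86) and was off in L-1236 (6.52, 6.38 and 6.39). The other 3 genes had the same state in each line without EBF1.

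SLAMF1, a self-binding receptor of activated lymphocytes, had the largest difference of the surface list. It read 8.51, 8.41 and 8.46 in L-428 tGFP/EBF1 cells, against 10.79, 11.08 and 10.96 in L-1236 tGFP/EBF1 cells, and was 5.59-fold lower in L-428 (limma, adjusted p = 2.19e-14). FCER2, the low-affinity IgE receptor CD23, was on at a high level in both lines, with 10.77, 10.81 and 10.79 in L-428 against 12.02, 12.16 and 12.12 in L-1236 tGFP/EBF1 cells, a difference of -1.31 (limma, adjusted p = 3.39e-12). With tGFP alone that difference was -2.32. CD83, an activation marker, was higher in L-428 (10.25 ± 0.014 against 9.03 ± 0.074 in L-1236). The costimulatory genes CD40, CD80 and CD27 passed the adjusted p lower in L-428 without reaching 2-fold, with differences of -0.91, -0.88 and -0.94. The chemokine receptors CCR7 and CXCR4 and the tetraspanin CD37 were on in both lines and did not pass, with differences of -0.02, 0.02 and -0.13. MS4A1 lay at 5.75, 5.96 and 5.86 in L-428 and at 5.95, 5.77 and 5.85 in L-1236 tGFP/EBF1 cells, which overlapped entirely below the benchmark. The Fc receptor-like genes FCRL2, FCRL3, FCRL4, FCRL5 and FCRLA, the maturation antigen gene TNFRSF17 and CR1 were off in both as well.

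The B-cell transcription factors were mostly expressed and mostly shared in state: 26 of 31 were on in both lines, 2 on in L-428 and off in L-1236, and 2 off in both. They differed in amount, with 5 called higher and 4 lower in L-428 (29.0%, against 7.65% of all rows). PAX5, the factor that commits cells to the B lineage, read 7.96, 7.81 and 7.85 in L-428 tGFP/EBF1 cells, against 9.33, 9.33 and 9.46 in L-1236 tGFP/EBF1 cells, and was 2.82-fold lower in L-428 (limma, adjusted p = 1.45e-13). ETS1, an ETS factor of lymphocytes, differed by -1.54 and its relative FLI1 by -1.51, with FLI1 at 6.96, 6.96 and 6.94 at the benchmark in L-428 and at 8.31, 8.48 and 8.61 in L-1236. POU2AF1, the B-cell coactivator of octamer factors, was on in both with a difference of -1.09.

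The factors higher in L-428 were others. IRF8, which acts in germinal centre B cells and in myeloid cells, read 10.44, 10.54 and 10.52 in L-428 tGFP/EBF1 cells and 8.47, 8.51 and 8.44 in L-1236 tGFP/EBF1 cells, or 4.07-fold (limma, adjusted p = 5.9e-14). IKZF3, encoding Aiolos, differed by 1.27, SPIB by 1.14, RUNX1 by 1.09 and TCF4 by 1.02. BACH2, a repressor that delays plasma cell differentiation, was on in L-428 at 7.69, 7.71 and 7.87 and off in L-1236 at 6.85, 6.65 and 6.80, a difference of 0.99 (limma, adjusted p = 1.16e-09). ZNF521, a zinc finger protein known to bind and inhibit EBF1, was on in L-428 at 7.43, 7.13 and 7.37 and off in L-1236 at 6.54, 6.44 and 6.57. Its difference of 0.79 was under the fold limit. IRF4 and IKZF1 were on in both lines with no passing difference (-0.02 and -0.10), as was SPI1, which encodes PU.1 (-0.01). The EBF1 relatives EBF2 and EBF3 were off in both.

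Of 23 measured genes listed as EBF1 targets in early B cells, 10 were on in both lines with EBF1, 8 off in both, 2 on in L-428 and off in L-1236, and 1 off in L-428 and on in L-1236. The 2 on in L-428 were CD24 and CD53, and the 1 on in L-1236 was BLNK. CD24, CD53 and the 2 lower-called genes PAX5 and POU2AF1 gave 17.4% called, against 7.65% of all rows. With quantile normalization 4 were lower. The recombinase genes RAG1 and RAG2, the interleukin-7 receptor gene IL7R and VPREB1 stayed off in both lines at high EBF1. Of 16 early B-cell genes, 12 were off in both, among them DNTT, which encodes terminal transferase, the stem cell marker CD34 and the receptor kinase FLT3. The 1 called member was CRLF2, which encodes a receptor chain for thymic stromal lymphopoietin, with 9.19, 9.12 and 9.14 in L-428 tGFP/EBF1 cells against 6.63, 6.89 and 6.71 in L-1236 tGFP/EBF1 cells, or 5.29-fold (limma, adjusted p = 8.62e-14). With tGFP alone CRLF2 was on in both lines, at 10.62, 10.63 and 10.20 in L-428 and 7.90, 7.88 and 7.97 in L-1236, so that its off state in L-1236 was found with EBF1. The line difference was about as large without EBF1 (2.57) as with it (2.40).

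Of 19 germinal centre genes, 1 was called higher and 2 lower in L-428 (15.8%, against 7.65% of all rows). MYBL1, encoding A-MYB, was 5.46-fold higher in L-428 (10.43, 10.33 and 10.40 against 7.89, 7.98 and 7.94 in L-1236). RGS13, a brake on chemokine receptor signalling, was 5.89-fold lower in L-428 (7.65, 7.23 and 7.48 against 9.67, 10.24 and 10.13 in L-1236). GCSAM, a signalling adaptor of germinal centre B cells, was 3.37-fold lower (8.10, 7.88 and 8.09 against 9.70, 9.82 and 9.82 in L-1236). BCL6, the master repressor of the germinal centre, was on in both and passed higher in L-428 without reaching 2-fold, at 8.35 ± 0.029 against 7.79 ± 0.038 in L-1236.

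Of 16 plasma cell genes, 3 were called higher in L-428 and 0 lower by limma, against 4.85% and 2.8% of all rows, and 5 passed the adjusted p lower without the fold. With quantile normalization 1 was called in each direction, and without replicate 1 of L-428 tGFP/EBF1 1 was called lower. PRDM1, encoding Blimp-1, the factor that ends the B-cell programme in plasma cells, read 10.82, 10.77 and 10.80 in L-428 tGFP/EBF1 cells, against 7.85, 7.94 and 7.97 in L-1236 tGFP/EBF1 cells, or 7.35-fold (limma, adjusted p = 8.41e-16). XBP1, which drives the secretory programme, and SEC11C, a subunit of the signal peptidase, were higher by 1.07 and 1.01. The other plasma cell genes MZB1, PIM2 and ELL2 passed lower in L-428, with differences of -0.65, -0.90 and -0.56.

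**Figure D3:**
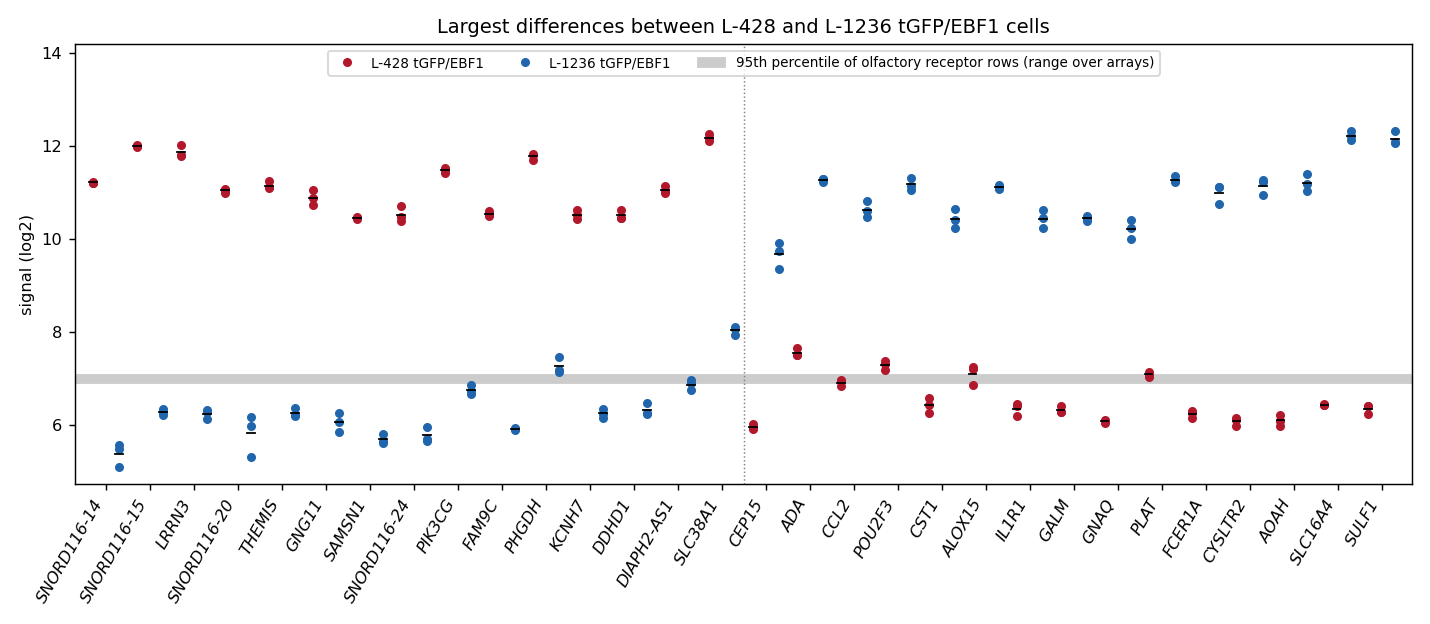
Log2 signal of the 15 called genes with the largest difference in each direction between L-428 and L-1236 tGFP/EBF1 cells, ordered from the highest to the lowest difference, by array (points, 3 a group) with group means (short lines) and the olfactory receptor benchmark (grey band). Genes left of the dotted line are higher in L-428 and those to its right lower. Only genes whose arrays did not overlap between the lines could be chosen, so the 30 are separated by selection.

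The 15 largest differences in each direction lay in genes outside the 19 lists used here. The largest in L-428's favour were small nucleolar RNAs of the SNORD116 cluster, of which 4 rows were among the 15, with differences of 4.75 to 5.84. These copies are nearly identical in sequence, so that their rows cannot be told apart and should be read as 1 signal. LRRN3, a leucine-rich repeat membrane protein, read 12.02, 11.80 and 11.81 in L-428 tGFP/EBF1 cells and 6.13, 6.33 and 6.28 in L-1236 tGFP/EBF1 cells, or 49.6-fold (limma, adjusted p = 9.61e-19). THEMIS, a signalling protein known from thymocytes, was 29.6-fold higher in L-428, and SAMSN1, an adaptor that restrains B-cell activation, 27.0-fold. The rest included GNG11, a G-protein gamma subunit (4.82), PIK3CG, the catalytic subunit of a phosphoinositide 3-kinase of leukocytes (4.73), PHGDH, the first enzyme of serine synthesis (4.51), and SLC38A1, a glutamine transporter (4.14).

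The largest in L-1236's favour were SULF1, an enzyme that trims sulfate from heparan sulfate, and SLC16A4, a monocarboxylate transporter. SULF1 read 6.41, 6.25 and 6.42 in L-428 tGFP/EBF1 cells, against 12.07, 12.32 and 12.09 in L-1236 tGFP/EBF1 cells, and was 55.6-fold lower in L-428 (limma, adjusted p = 3.65e-20). SLC16A4 was 55.1-fold lower in L-428 (limma, adjusted p = 1.6e-21). The others included FCER1A, the alpha chain of the high-affinity IgE receptor (-4.76), CYSLTR2, a leukotriene receptor (-5.06), ALOX15, a lipoxygenase (-4.01), AOAH, which inactivates endotoxin (-5.11), and the chemokine CCL2 (-3.72). POU2F3, an octamer factor of tuft cells, differed by -3.89. GNAQ, a G-protein alpha subunit, was lower on both of its rows, with differences of -4.13 and -3.53. Of these 30 genes, all but GNG11, FAM9C, THEMIS, SLC16A4, FCER1A, CST1 and CEP15 missed the adjusted p of 0.05 for a change of the line difference with EBF1.

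The Hodgkin genes did not go one way. Of 37 measured genes, 8 were called higher and 7 lower in L-428 (40.5%, against 7.65% of all rows), and 32 were on in both. Among the higher, CCR4, a chemokine receptor of type 2 helper T cells, read 11.24, 11.19 and 11.21 in L-428 tGFP/EBF1 cells against 8.41, 8.46 and 8.46 in L-1236 tGFP/EBF1 cells, or 6.82-fold. TRAF1, an adaptor of tumour necrosis factor receptors, was 6.73-fold higher, with 10.14, 10.02 and 10.00 in L-428 against 7.38, 7.25 and 7.29 in L-1236. CCL5, JUN, CD70, LGALS1 and FSCN1 were higher by 1.02 to 2.15. Among the lower, LTA, encoding lymphotoxin alpha, read 9.75, 9.76 and 9.87 in L-428 tGFP/EBF1 cells against 12.13, 12.24 and 12.17 in L-1236 tGFP/EBF1 cells, or 5.23-fold lower in L-428. The chemokine CCL22 was 4.23-fold lower, with 8.11, 8.08 and 8.09 in L-428 and 10.23, 10.01 and 10.29 in L-1236. The checkpoint ligands CD274 and PDCD1LG2, which encode PD-L1 and PD-L2, were lower in L-428, with differences of -1.75 and -1.22, and so were the cytokines IL6 and TNF, with -1.60 and -1.08.

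Of 15 MHC class II genes, which serve the presentation of peptides to helper T cells, 7 were called higher in L-428 and 1 lower (53.3%, against 7.65% of all rows), with a median difference of 0.96 against -0.029 over all genes. HLA-DPB1 had signals of 12.50, 12.49 and 12.46 in L-428 tGFP/EBF1 cells, against 10.74, 10.74 and 10.76 in L-1236 tGFP/EBF1 cells, on the brightest of its 3 rows. A dimmer row differed by 1.42 and was called, and the dimmest by 0.57 and was not. HLA-DOA, HLA-DMA, HLA-DMB, HLA-DPA1 and the protease gene CTSS were called higher too, and so was HLA-DRB5, a member of a near-identical gene family whose signal is uncertain. HLA-DOB, the partner of HLA-DOA in the inhibitor of peptide loading, was called lower in L-428 (8.02 ± 0.088 against 9.28 ± 0.14 in L-1236). CIITA, the master activator of these genes, differed by 0.96 (limma, adjusted p = 4.7e-11), under the fold limit. Of 10 class I genes, 8 passed the adjusted p lower in L-428 and 1 higher, against 22.3% and 28.2% of all rows, and ERAP2, a peptidase that trims peptides, was the 1 called (-2.28).

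Among other lists, the NF-kappaB inhibitor TNFAIP3 was 4.67-fold higher in L-428 (12.20, 12.15 and 12.17 against 9.86, 10.03 and 9.96 in L-1236), and the kinase MAP3K14 was higher by 1.73. They were the 2 called of 19 NF-kappaB components (10.5%, near the 7.65% of all rows), and 1 more was called lower with quantile normalization. Of 21 JAK-STAT genes, STAT4, PIM1 and STAT3 were called higher and IL4R lower (19.05%, against 7.65% of all rows). The call of IL4R was lost with median centring, with either method of array weights and without replicate 2 of L-1236 tGFP/EBF1. STAT4 was on in L-428 at 9.52, 9.39 and 9.43 and off in L-1236 at 6.86, 6.88 and 6.80. Among 20 antagonists of the B-cell programme, TOX and MSC were called higher (2.85 and 2.59), and HEY1, a Notch target, lower (-1.42), which made 15% against 7.65% of all rows. With quantile normalization, and without replicate 1 of L-428 tGFP/EBF1 or replicate 1 or 3 of L-1236 tGFP/EBF1, 2 were lower. MSC, also known as ABF-1, inhibits the E proteins that work with EBF1. Of 21 cell division genes, 18 passed the adjusted p higher in L-428 (28.2% of all rows did) and 1 lower. Of the 18, 4 were called (4.85% of all rows were called higher), and the median difference was 0.75. The 4 became 1 with quantile normalization, 7 with median centring and 2 without replicate 1 of L-1236 tGFP/EBF1. The kinase AURKB differed by 1.27 and MKI67, encoding Ki-67, by 0.65, while the mitotic kinase PLK1 was lower, with a difference of -0.35. The part of this difference in cell division in the other gene groups was not tested.

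Of the 73 markers of other cell types, 4 were called higher and 2 lower in L-428 (8.22%, against 7.65% of all rows), and their mean signal per array lay between 6.92 and 6.96 in L-428 tGFP/EBF1 cells and between 6.91 and 7.02 in L-1236 tGFP/EBF1 cells. The called ones were IL2RB, CD68, VIM and ACTA2 higher in L-428, and CD4 and PECAM1 lower. CD4, the coreceptor of helper T cells, read 6.80, 6.96 and 6.74 in L-428 and 8.84, 9.22 and 9.24 in L-1236 tGFP/EBF1 cells, beside CD3D, CD3E and CD3G off in both lines.

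The comparison with the tGFP cells shows which of these differences were already there. The difference of the 2 line differences equals the difference between the EBF1 effects of the lines, and it was tested in the same fit. It passed an adjusted p of 0.05 in 1061 rows (5.16%), 694 (3.38%) positive and 367 (1.79%) negative, where positive means that L-428 stood higher relative to L-1236 with EBF1 than with tGFP. With 2-fold as well, 32 rows (0.156%) passed, 16 in each direction (0.0779% each). The count without the fold limit moved between 599 and 4538 with scaling and array weights, and with both arrays of narrow spread left out it was 1897, of which 1113 were negative. Of the 1571 called rows, 315 passed this test. A 2-fold call appeared with EBF1 and was absent with tGFP in 118 rows whose difference passed, 80 of them higher in L-428, and it was present with tGFP and absent with EBF1 in 88. Of the 142 B-cell genes, 22 passed, against 964 of all 18405 genes.

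**Figure D4:**
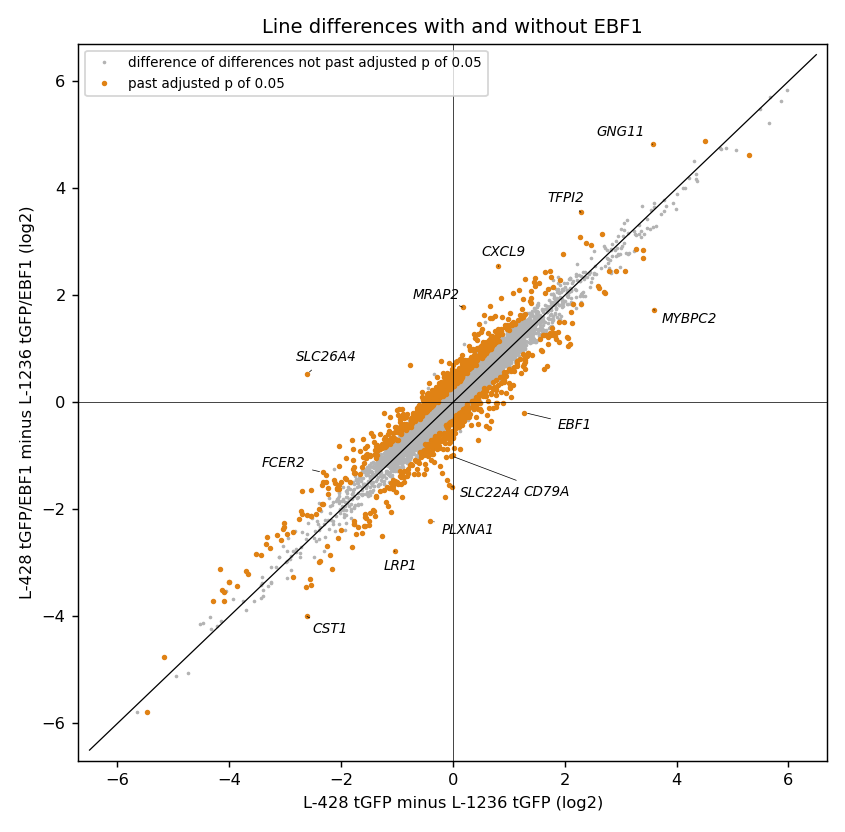
Difference between L-428 and L-1236 with tGFP/EBF1 (vertical axis, log2) against the difference with tGFP (horizontal axis, log2). Each point is a row with a gene symbol outside chromosome Y and XIST, and the diagonal marks equal differences. Orange points are the drawn rows whose 2 differences differ at an adjusted p of 0.05, adjusted over all 20546 rows. SLC26A4, at 0.52 and -2.61, lies farthest from the diagonal.

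Some of these genes have promoter windows that hold letters of the EBF1 motif. The 4 shown had a wider line difference with EBF1 than with tGFP: CXCL9 and TFPI2 towards L-428, CD79A and SLC22A4 towards L-1236. The palindromic EBF1 motif has the core CCCNNGGG, and each of its arms reads ATTCCC on one strand and GGGAAT on the other. The arm occurred on either strand in 6 of 16 promoters found for the 19 genes named here for a changed line difference (37.5%), in CXCL9, TFPI2, TNFRSF9, SLC22A4, CD79A and RUNX1, against 3083 of 27305 promoters of the same length (11.3%). The core occurred in 3 of the 16 (18.8%), in PLXNA1, LRP1 and PRKCH, against 16.6% of all promoters. Of 10 promoters found for the 12 B-cell genes with opposite states, 0 held the arm and 1, that of FYN, the core. The windows are the 250 bases before the gene start in RefSeq, build GRCh38.p14, written 5′ to 3′ on the gene's strand, with the arm in capitals. These genes were chosen by their values or added by name, and the letters were searched afterwards. Of the 19, CD79A, FCER2 and RUNX1 were added by name to the largest changes in each direction. CD79A and RUNX1 are among the 6 with the arm. Other named genes that passed the same contrast, among them PAX5, CD22, FYN and PRKCB, were left out of the 19. The 37.5% depends on this choice, and the share without the added genes was not calculated. The shares are therefore a description and show no binding.
CXCL9, chr4:76007510-76007759, minus strand: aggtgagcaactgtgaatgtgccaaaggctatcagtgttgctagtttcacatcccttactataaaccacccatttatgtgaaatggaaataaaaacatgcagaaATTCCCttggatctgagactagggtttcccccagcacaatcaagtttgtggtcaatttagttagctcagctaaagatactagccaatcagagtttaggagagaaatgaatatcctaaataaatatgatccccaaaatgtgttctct
TFPI2, chr7:93890754-93891003, minus strand: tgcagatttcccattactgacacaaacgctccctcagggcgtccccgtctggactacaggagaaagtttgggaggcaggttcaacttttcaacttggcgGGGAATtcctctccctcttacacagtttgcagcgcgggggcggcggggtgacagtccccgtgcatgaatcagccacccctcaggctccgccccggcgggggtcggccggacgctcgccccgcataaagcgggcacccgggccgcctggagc
CD79A, chr19:41877029-41877278, plus strand: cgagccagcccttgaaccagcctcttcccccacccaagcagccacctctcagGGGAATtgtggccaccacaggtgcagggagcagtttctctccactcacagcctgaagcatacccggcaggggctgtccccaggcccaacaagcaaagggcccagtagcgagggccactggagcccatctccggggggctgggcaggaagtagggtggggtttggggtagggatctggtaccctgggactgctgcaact
SLC22A4, chr5:132294144-132294393, plus strand: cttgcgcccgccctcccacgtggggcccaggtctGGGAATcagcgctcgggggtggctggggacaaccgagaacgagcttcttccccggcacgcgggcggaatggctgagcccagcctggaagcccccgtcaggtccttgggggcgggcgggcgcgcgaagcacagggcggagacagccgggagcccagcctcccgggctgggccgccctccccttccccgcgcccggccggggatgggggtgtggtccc

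In one set of genes the gap opened or widened, with L-428 higher with EBF1 than with tGFP and L-1236 near its tGFP level. CXCL9, a chemokine induced by interferon gamma, read 8.81, 8.66 and 8.71 in L-428 tGFP/EBF1 cells and 6.25, 6.11 and 6.18 in L-1236 tGFP/EBF1 cells, against 7.16, 7.05 and 7.02 in L-428 tGFP cells and 6.30, 6.27 and 6.23 in L-1236 tGFP cells. L-1236 was off in both conditions while L-428 lay well above the benchmark with EBF1, and the line difference was 2.54 with EBF1 and 0.81 with tGFP. MRAP2, an accessory protein of melanocortin receptors, was off in both lines with tGFP and was on only in L-428 with EBF1, at 8.61, 8.42 and 8.37 against 6.65, 6.65 and 6.75 in L-1236. Its line difference was 1.78 with EBF1 and 0.17 with tGFP. IFNG, encoding interferon gamma, likewise was off in both lines with tGFP and lay just above the benchmark in L-428 with EBF1, at 7.15 ± 0.079 against 6.13 ± 0.038 in L-1236. TFPI2, a protease inhibitor, differed by 3.55 with EBF1 and 2.29 with tGFP. PRKCH, a protein kinase C isoform, differed by 1.81 and 0.66.

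In another set the gap opened or widened, with L-1236 higher with EBF1 than with tGFP. PLXNA1, a semaphorin receptor, read 7.996, 8.10 and 8.12 in L-428 tGFP/EBF1 cells and 10.20, 10.38 and 10.28 in L-1236 tGFP/EBF1 cells, against 8.19, 8.15 and 7.95 in L-428 tGFP cells and 8.54, 8.55 and 8.43 in L-1236 tGFP cells. The L-428 arrays overlapped between conditions and the L-1236 arrays did not. LRP1, an endocytic receptor, differed by -2.78 with EBF1 and -1.04 with tGFP, and SLC22A4, an ergothioneine transporter, by -1.58 and -0.02. FAR2, a fatty acyl-CoA reductase, and IL7, the cytokine that supports lymphoid progenitors, were off in both lines with tGFP and on in L-1236 alone with EBF1. FAR2 read 6.19, 6.35 and 6.39 in L-428 and 7.65, 7.78 and 7.86 in L-1236 tGFP/EBF1 cells, and IL7 averaged 6.81 ± 0.027 in L-428 and 8.12 ± 0.14 in L-1236 tGFP/EBF1 cells. OR5E1P, an olfactory receptor pseudogene, behaved in the same way, at 6.16 ± 0.045 in L-428 and 7.94 ± 0.088 in L-1236 tGFP/EBF1 cells.

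Other gaps were narrower with EBF1. MYBPC2, a muscle myosin-binding protein, differed by 3.59 with tGFP and by 1.73 with EBF1, and L-428 read 8.52, 8.57 and 8.52 with EBF1, against 10.41, 10.55 and 10.29 with tGFP. TNFRSF9, the costimulatory receptor 4-1BB, differed by -0.82 with EBF1 and -2.05 with tGFP, and CD40 by -0.91 and -1.65. The class II gene HLA-DQA1 differed by -0.70 with EBF1 and -1.81 with tGFP. In 51 rows the line difference passed the adjusted p in both conditions with opposite signs and the change passed too. SLC26A4, an anion exchanger, was higher in L-428 with EBF1 (9.09, 9.02 and 9.04 against 8.46, 8.65 and 8.48 in L-1236) and lower in L-428 with tGFP (7.41, 7.23 and 7.11 against 9.82, 9.87 and 9.89 in L-1236). PLK1 was lower in L-428 with EBF1 (-0.35) and higher with tGFP (0.69).

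**Figure D5:**
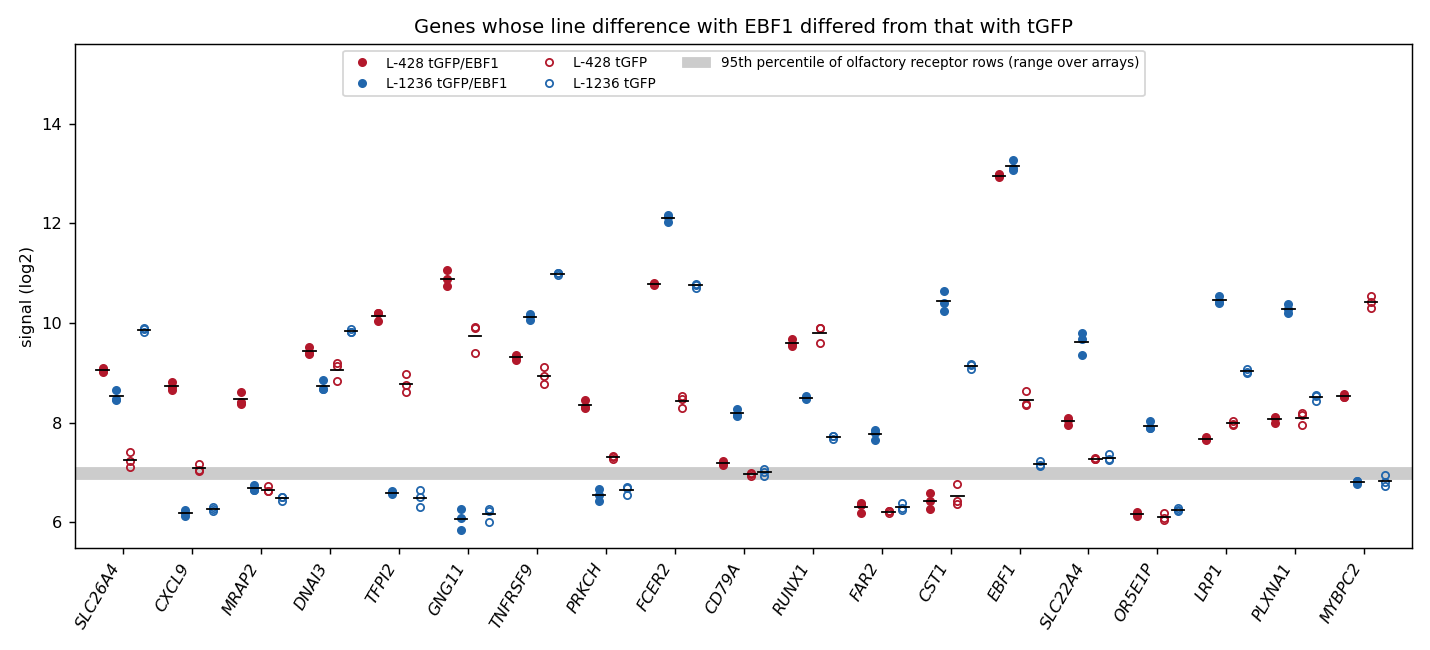
Log2 signal of the 16 genes with the largest difference between line differences (8 in each direction) and of FCER2, CD79A and RUNX1 in L-428 and L-1236 tGFP/EBF1 cells (filled points) and L-428 and L-1236 tGFP cells (open points), 3 arrays a group, with group means (short lines) and the olfactory receptor benchmark (grey band). SLC26A4 shows the lines in opposite order with and without EBF1, and OR5E1P, FAR2 and MRAP2 lie below the band in every group but 1.

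Among B-cell genes, the change of the line difference was -0.95 for CD79A (SE 0.085; limma, adjusted p = 1.79e-06), 1.01 for FCER2 (limma, adjusted p = 2.42e-06) and -0.99 for RUNX1 (limma, adjusted p = 9.22e-06). CD79A therefore separated the lines with EBF1 and not with tGFP. For PAX5 it was 0.34 (limma, adjusted p = 0.0246). Of the 12 genes of opposite state it passed for 4, at 0.42 for CD22 (limma, adjusted p = 0.0232), -0.59 for PRKCB (limma, adjusted p = 0.000573), 0.46 for FYN (limma, adjusted p = 0.00548) and 0.42 for CD38 (limma, adjusted p = 0.0206). It did not pass for RASGRP3 (-0.03), BLNK (0.08), CD53 (0.27), BACH2 (0.21), ZNF521 (-0.06), CRLF2 (-0.16), CD24 (-0.35) or CD48 (0.08). The states of these 8 genes were the same with tGFP, with the exception of CRLF2. FCGR2B, the inhibitory receptor for immunoglobulin G, was off in both lines with EBF1, at 6.28 ± 0.050 in L-428 and 6.65 ± 0.13 in L-1236. With tGFP it was off in L-428 at 6.20 ± 0.014 and on in L-1236 at 7.15 ± 0.051.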

How the data were processed

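Each of 4 groups was measured on 3 Affymetrix whole-transcript arrays (12 in all), with 1 deposited value per array and row. The deposited values, 1 per transcript cluster as summarized by the authors, were read as log2 signals. The methods of summarization and any normalization, and the logarithm base, are not stated, and base 2 was taken from the highest value of 14.3. Groups were taken from the sample titles. Of 32321 rows, the platform annotation gives 19158 a single symbol, 1388 several and 11775 none. Gene IDs of 19128 rows matched the RefSeq table of GRCh38.p14 and 0 symbols changed. Genes were named from rows with 1 symbol, apart from EBF1. The array's genome build is not given in the sources used here.

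limma 3.58.1 (R 4.3.3) was fitted to all 12 arrays with lmFit and eBayes (4 group means, no block, 8 residual and 9.98 prior degrees of freedom), with contrasts of L-428 minus L-1236 with tGFP/EBF1, the same with tGFP, and the difference of these. The Benjamini-Hochberg adjustment of p-values ran over 20546 rows. The limits of 5% and 2-fold are those of the study's design text. A gene with several rows was represented in the 19 lists (392 symbols, 356 genes measured) by its brightest. The members and lists were chosen with earlier results of these data known. Named genes were EBF1, CD79A, CD79B, MS4A1, PAX5, FCER2 and TNFRSF8, the 15 largest non-overlapping called differences in each direction outside chromosome Y and XIST, B-cell genes with opposite states or states that changed with EBF1, up to 4 called members of each list in each direction, and the 8 largest changes of the line difference in each direction. Further list members were named after their values were seen.

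The fit was tested on simulated arrays. The alternatives tried were median centring, quantile normalization, other row sets including one without dim rows, array weights, trend and robust variance, the 6 tGFP/EBF1 arrays alone, leaving out each replicate, the replicate number as a block, and other thresholds and benchmarks. A second method of array weights and leaving out both arrays of narrow spread were added after seeing the data. Figures were drawn with matplotlib 3.10.9 under Python 3.11.15.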

Additional observations from a re-analysis of the deposited data

Results flagged for a closer look

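The line difference (L-428 minus L-1236) changed between tGFP/EBF1 and tGFP cells for the 19 genes given here. The limma contrast used tests this change itself over all 20546 rows. They are the 8 largest changes in each direction past 2-fold, the transduced EBF1 among them, with FCER2, RUNX1 and CD79A added by name. Other named genes passed this contrast too, among them PAX5, CD22, FYN, PRKCB and CD38. Positive changes were 3.14 for SLC26A4, 1.73 for CXCL9, 1.61 for MRAP2, 1.48 for DNAI3, 1.26 for TFPI2, 1.25 for GNG11, 1.23 for TNFRSF9, 1.15 for PRKCH and 1.01 for FCER2 on the log2 scale. Negative changes were -1.86 for MYBPC2, -1.81 for PLXNA1, -1.73 for LRP1, -1.64 for OR5E1P, -1.56 for SLC22A4, -1.46 for EBF1, -1.39 for CST1, -1.35 for FAR2, -0.99 for RUNX1 and -0.95 for CD79A. DNAI3, a dynein intermediate chain, was higher in L-428 with EBF1 (9.52, 9.40 and 9.38 against 8.67, 8.85 and 8.67 in L-1236) and lower in L-428 with tGFP (9.20, 9.14 and 8.84 against 9.87, 9.81 and 9.81 in L-1236). CST1, a cystatin, was off in L-428 with EBF1 (6.43, 6.58 and 6.27) and on in L-1236 with EBF1 (10.41, 10.24 and 10.65), and with tGFP it read 6.43, 6.76 and 6.37 in L-428 and 9.16, 9.07 and 9.17 in L-1236. GNG11 had 11.06, 10.88 and 10.74 in L-428 with EBF1 and 9.90, 9.92 and 9.39 in L-428 with tGFP, and L-1236 was off in both. With 3 arrays a group, single arrays were not tested as outliers.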

How the results depend on the processing

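The 1571 calls between the tGFP/EBF1 groups numbered 1415 to 1788 under every other scaling, row set, variance model and left-out array, and the replicate block gave 1571, all of them shared with the fit without it. The numbers of the samples did not pair them: deviations of same-numbered L-428 and L-1236 tGFP/EBF1 samples correlated at -0.372, -0.298 and 0.017. Thresholds moved the count to 10381 with no fold limit and 331 at 4-fold, and between the tGFP groups to 9836 and 321. The 16 B-cell genes called higher and 9 lower became 37 and 43 with no fold limit and 6 and 3 at 4-fold, and 15 were lower after quantile normalization. Quantile normalization moved the median difference by 0.0238 and median centring by 0.0751. With the 90th percentile of olfactory receptor rows as benchmark 4 B-cell genes were on in L-428 and off in L-1236, and with the 99th percentile 5 were off in L-428 and on in L-1236.

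The EBF1 difference between the lines was -0.0297 with quantile normalization and -0.114 with median centring, neither of which passed, and it missed the threshold at -0.189 with every row tested or with trend and robust variance. It lay between -0.229 and -0.129 with single arrays left out.

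The count of changed line differences, 1061, of which 694 positive and 367 negative, depended on processing. It was 599 (401 and 198) with each array centred on its median, 1865 (1092 and 773) with quantile normalization, 676 (417 positive) with every row tested, 4538 (2415 and 2123) with array weights, which did not converge, 3194 (1695 and 1499) with gene-by-gene weights, and 1897 (1113 negative) without both arrays of narrow spread. With 1 array left out it lay between 672 and 1457, with 413 to 910 positive and 257 to 756 negative. With 2-fold as well it was 32 also at an adjusted p of 0.01, and 1 at 4-fold. The 16 negative ones were 26 with array weights, 25 with gene-by-gene weights, 27 without both arrays of narrow spread, and between 13 and 25 with 1 array left out. The cause of these changes was not tested.

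Of 120 named genes besides EBF1, 111 kept their direction and their side of the adjusted p in every setting run. With the fold limit, 9 of the 97 called lost the call in at least 1 setting (ACTA2, CDK1, IL4R, KIF11, RUNX1, SEC11C, STAT3, TTK and XBP1), and CD79A, BACH2, PRKCB and TNFRSF9 gained one. Genes near 0 in difference and below or at the benchmark changed sign: MS4A1 was -0.00188, -0.0428 and -0.00172 in some fits and lay between -0.0499 and 0.0549 with 1 array left out, VPREB3 between -0.0735 and 0.0858 in the same way and at 0.0685 (quantile normalization), 0.0573 (median centring), 0.084 and 0.0646 (both array weights) and 0.0858 (without both arrays of narrow spread, and without replicate 1 of L-1236 tGFP/EBF1), CD72 at 0.0377 and 0.0211 and CD52 at 0.045 and 0.0315 (quantile normalization and median centring), CD52 also between -0.0863 and 0.0122 with 1 array left out, and FCRL1 at 0.00167 (quantile normalization).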

Other observations

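Immunoglobulin heavy-chain segments share probes on this array, and their rows carry several symbols. Of 27 immunoglobulin rows, 14 were off in both lines with EBF1 and 7 on in both, against 27.9% and 61.2% of all rows. Only 1 was called, where 7.65% of all rows were. The called row, annotated with IGHM and a pair of variable segments of family IGHV3, had means of 6.80 in L-428 tGFP/EBF1 cells and 8.33 in L-1236 tGFP/EBF1 cells, a difference of -1.54, against means of 6.90 and 6.97 in the tGFP cells of L-428 and L-1236. The change of this line difference was -1.46, in the same direction as that of CD79A, and which of the listed segments gave the signal cannot be told from the row.

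The mean EBF1 signal was 4.51 higher with tGFP/EBF1 than with tGFP in L-428, and 5.97 higher in L-1236. Among the 20546 rows, 10 were off in both lines with tGFP and on in L-428 alone with EBF1, and 18 in L-1236 alone. These counts set no fold limit, so they include small shifts across the benchmark. Of the rows with 1 symbol outside chromosome Y and XIST, those also called at 2-fold were MRAP2 and IFNG in L-428, and OR5E1P, FAR2 and IL7 in L-1236. Among genes chosen after their values were seen, those whose line difference turned sign with EBF1 included NIM1K, a protein kinase gene (-0.70 with EBF1 and 0.45 with tGFP), CYP4Z1, a cytochrome P450 (-0.48 and 0.64), ETV5, an ETS factor (0.77 and -0.21), and BHLHE41, a circadian repressor (-0.40 and 0.44).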
